A study of Homo sapiens with 19 samples.

Results

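Human THP-1 cells treated with vitamin C (vit C) for 48 h were compared with the same cells treated for 24 h, gene by gene, on 4 of the 19 expression arrays of a time course. THP-1 is an established line from an acute monocytic leukemia, and every flask, treated or not, had first been turned into adherent macrophage-like cells with 30 nM of the phorbol ester PMA for 16 to 18 h and rested. Vit C was then added at 0.1 mM, and the untreated (UT) flasks received none. The groups used were vit C 24 h (2 arrays), vit C 48 h (2 arrays), UT 24 h (3 arrays) and UT 48 h (2 arrays), and 10 further arrays at 8 and 96 h served only to estimate the spread. All these groups carry the PMA, so none of them shows the undifferentiated monocytic line, and all come from a single cell line. The comparison covered the 31581 of 50238 non-control probes that were well above background on both vit C arrays of at least 1 time, which carry 20822 of the 30988 genes on the array.

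A level below is the log2 of an array's background-subtracted signal minus the 75th percentile of that array, so that 0 is the brightness that 1 probe in 4 exceeds. A change is the 48 h mean minus the 24 h mean on this log2 scale, 1 unit is a doubling, and ± gives its standard error from limma, an empirical Bayes linear model across all probes. A gene was called where a probe changed by at least 1 unit with an adjusted p (q, Benjamini-Hochberg over all probes) of at most 0.05 and no other measured probe of the gene pointed the other way. Where a gene has several probes the brightest is given unless another is named. Levels of different genes are not comparable on such arrays. Differences were compared with a spread between replicate flasks of one line, with 2 arrays a group, and in such bulk RNA fewer cells with a transcript and less of it in each cell cannot be told apart.

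The 4 arrays were of similar quality. Their 75th percentiles lay between 350.0 and 561.7 units of signal, and 58.6 to 65.8% of probes were well above background. Replicates correlated with Pearson r = 0.980 (24 h) and 0.985 (48 h) across the 31581 probes. Arrays of different times correlated with 0.961 to 0.968, where probes are not independent replicates. Both 24 h arrays and vit C 48 h replicate 1 lay on 1 slide, whereas vit C 48 h replicate 2 lay on another. Values without that array are therefore within a slide and are given below where they matter. The UT 24 h and 48 h arrays shared a further slide. Levels of vit C and UT cells thus differ in slide as well as in vit C. A constant slide offset drops out of a change taken within 1 slide, but a slide effect that differs between the times does not. As to cell identity, all 14 monocyte and macrophage markers on the array were well above background on the 4 arrays. Of 17 markers of other cell types, 8 were detected on none of them, among them CD3D, MS4A1, HBB, EPCAM, CDH1, CDH5 and COL1A2, and 7 on all 4. Of the monocyte markers CD14, the lipopolysaccharide co-receptor, rose by 1.92 ± 0.29, CD86 rose by 1.49 on a dimmer probe, and CYBB, the catalytic subunit of the phagocyte oxidase, fell by 1.07 on the log2 scale, with UT changes of 1.79, 2.44 and -1.19. CD86 lost the call with 2 of the 4 arrays left out in turn. PECAM1, an endothelial marker that monocytes also carry, rose by 1.29 ± 0.21. The part of such shifts in the results was not tested.

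PMA stops THP-1 cells from dividing and starts a macrophage programme, with adhesion, secreted enzymes and chemokines, that changes further over the following days. Vit C is a cofactor of Fe(II)- and 2-oxoglutarate-dependent dioxygenases, which hydroxylate collagen, the hypoxia-inducible factors, histones and methylated DNA. Amino acid shortage and stress of the endoplasmic reticulum both act through the transcription factor ATF4, which switches on genes of serine and asparagine synthesis. Mitotic genes are held down in resting cells by the DREAM complex at cell cycle homology regions, and interferon-stimulated and metallothionein genes are switched on through response elements bound by ISGF3 and by the zinc-sensing factor MTF1.

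Of the 20822 genes, 1509 (7.25%) were called, 929 higher (4.46%) and 580 lower (2.79%) at 48 h. The gene groups described below were read against these shares. The lists with the largest shares of rises were those of mitosis (29 of 30 genes), metal handling (8 of 11), S100 proteins (5 of 9), the extracellular matrix (8 of 16) and the response to amino acid shortage and endoplasmic reticulum stress (8 of 17). The largest shares of falls were those of granule proteins and other genes of myeloid precursors (5 of 7), chemokines of mononuclear cells (8 of 15) and interferon-stimulated genes (12 of 24). For 1475 of the called genes the arrays of the 2 times did not overlap on the brightest probe, as was so for 54.2% of all 20822 genes. Without vit C 48 h replicate 2, which leaves 1 array at 48 h whose spread is taken from the other groups, 1024 genes were called and 886 of the 1509 calls (58.7%) stayed. The count was 973 without vit C 24 h replicate 2 and 952 without vit C 48 h replicate 1, and 622 of the calls stayed in all 4 fits that leave out 1 of the 4 arrays. The share of rises among the calls, 61.6%, depends on the scaling. Without the percentile shift the median of all genes was -0.41 in place of -0.06, and 35.6% of 794 calls were rises. The limma fit on the 4 arrays alone gave 362 calls, of which 79.6% were rises. With the methods' t-test, on 2 arrays against 2, no gene passed after adjustment and 1547 did before it.

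**Figure D1:**
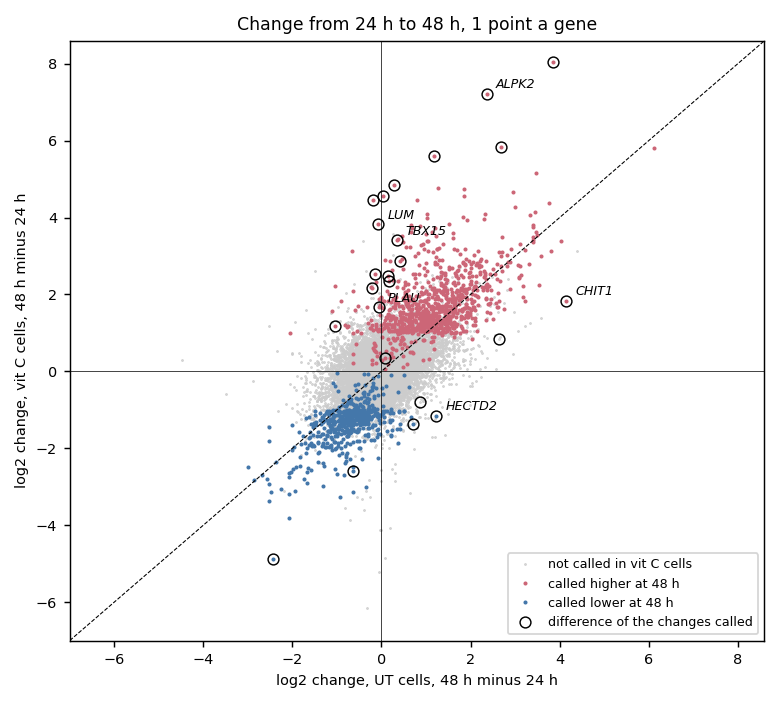
Change from 24 to 48 h in vit C-treated cells (y axis, log2) against the change over the same hours in UT cells (x axis, log2), 1 point a gene (brightest probe), with the line of equal change dashed and circles around genes whose 2 changes differed. Called genes lie mostly to the lower left and upper right of 0, 1413 of 1509 having the same sign in both. Over all 20822 genes the 2 changes correlated with Pearson r = 0.583, and the share of equal signs among them was not counted.

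The largest rises and falls mixed secreted proteins, receptors and enzymes. Among the 18790 genes whose brightest probe was well above background on all 4 arrays, 800 rose (4.26%) and 487 fell (2.59%). Decorin (DCN), a small leucine-rich proteoglycan of the matrix, had the largest rise among genes detected on all 4 arrays. Its levels were -4.34 and -3.90 at 24 h and 1.11 and 0.99 at 48 h, a change of 5.17 ± 0.42 (q = 1.3e-05, limma). Stanniocalcin 2 (STC2), a secreted glycoprotein hormone, read -3.12 and -3.83 at 24 h and 1.47 and 1.12 at 48 h and rose by 4.78 ± 0.47 (q = 5.0e-05, limma). In both genes the gap between the times was far wider than that between replicates. FGFBP2, a secreted protein that binds fibroblast growth factors, rose by 4.66 ± 0.31 from -4.11 and -4.24 at 24 h and 0.45 and 0.51 at 48 h. VSIG4, a complement receptor of tissue macrophages, rose by 4.37 ± 0.18, with -0.64 and -0.75 at 24 h and 3.64 and 3.71 at 48 h. ABCG1, which exports cholesterol to lipoproteins, rose by 3.82 ± 0.54 from -4.15 and -4.34 at 24 h and -0.27 and -0.59 at 48 h. None of these 5 calls was lost when 1 of the 4 arrays was left out. DRD5, a dopamine receptor, rose by 4.64 ± 0.62 on 1 probe and by 2.47 ± 0.28 on its brightest. Another probe, well above background on neither vit C array of 24 h, changed by 4.94 ± 0.30. These probes disagree on the size and not on the sign.

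Among the falls, cathepsin G (CTSG), a serine proteinase of azurophil granules, was at 1.81 and 2.14 at 24 h and -1.85 and -1.84 at 48 h, a change of -3.82 ± 0.65 (q = 0.0028, limma). HMOX1, heme oxygenase, was at 7.56 and 6.89 at 24 h and 4.50 and 4.35 at 48 h and changed by -2.80 ± 0.27 (q = 4.8e-05, limma). RAB7B, a small GTPase of late endosomes, read 5.28 and 5.33 at 24 h and 2.25 and 2.79 at 48 h, a change of -2.79 ± 0.22. These 3 genes were ranked among genes whose times do not overlap, and the gap between the times was wider than that between replicates. MLC1, a membrane protein best known from astrocytes, changed by -3.05 ± 0.29, and SLPI, the secreted inhibitor of leukocyte proteinases, by -2.75 ± 0.24. MTHFD2L, a mitochondrial folate enzyme, changed by -2.83 ± 0.34, and SLC7A8, a transporter of large neutral amino acids, by -2.69 ± 0.28. FABP4, a fatty acid-binding protein of macrophages and adipocytes, read 0.29 and -0.27 at 24 h and -3.00 and -2.85 at 48 h, and ADAMTS8, a secreted metalloproteinase, 0.96 and -0.02 at 24 h and -1.91 and -2.41 at 48 h. Their changes of -2.94 ± 0.67 (q = 0.019, limma) and -2.63 ± 0.66 (q = 0.032, limma) lost the call when any 1 of the 4 arrays was left out.

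**Figure D2:**
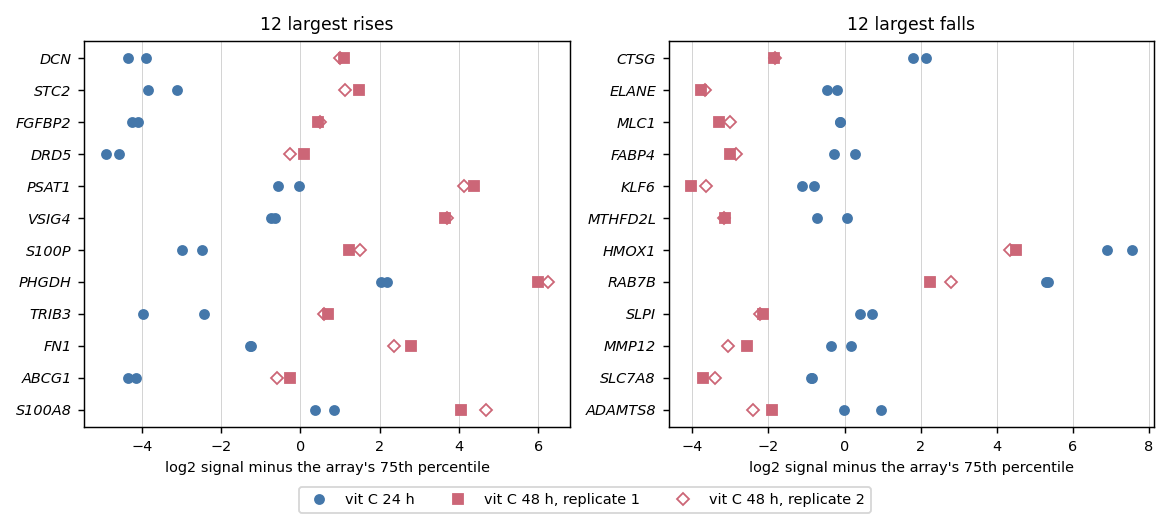
Levels (log2 signal minus the array's 75th percentile) on each of the 4 vit C arrays for the 12 genes with the largest rises and the 12 with the largest falls, on the probe that was ranked. The genes were chosen among those whose 2 arrays of 48 h lie on one side of the 2 arrays of 24 h.

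Of array names that are no current or older gene symbol, DQ786230 rose by 4.47 ± 0.64, THC2668815 by 3.95 ± 0.27 and FLJ35024 by 3.80 ± 0.44. W60781 changed by -2.91 ± 0.25 and THC2603259 by -2.58 ± 0.26. HsapiAK027240 changed by -2.56 ± 0.65 on 1 probe, but its 48 h arrays were far apart on it (4.53 and 4.96 at 24 h and 0.55 and 3.82 at 48 h) and its brightest probe changed by -0.94. It lost the call without vit C 24 h replicate 2 or 48 h replicate 1.

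Some genes were well above background on both arrays of 1 time and on neither of the other, so that only a least fold can be given, from the brighter group's mean and the lowest well-detected signal of the dimmer arrays. Such genes were covered through the time at which they were bright and so had to differ, and q is given for them as a description only. At 48 h only, AK022110 was at least 55.7-fold higher, ALPK2, an alpha-type protein kinase, at least 42.6-fold, GPX8, a glutathione peroxidase of the endoplasmic reticulum, at least 14.2-fold and AK001966 at least 10.2-fold (q of 1.7e-06, 2.1e-06, 2.9e-06 and 4.1e-05, limma). At 24 h only, FFAR3, a receptor for short-chain fatty acids, was at least 8.77-fold higher, a dim SLPI probe at least 6.75-fold and ARHGEF37, a guanine nucleotide exchange factor, at least 3.5-fold, its call being lost with normexp background correction (-0.48). A probe of GP1BA, a platelet adhesion receptor, was at least 3.09-fold higher at 24 h, but the gene's brightest probe changed by -0.08 ± 0.40.

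Of 17 genes of the response to amino acid shortage and endoplasmic reticulum stress, all detected on all 4 arrays, 8 rose (47.1%) and none fell. The mean level over the 17 genes was 2.15 and 2.31 at 24 h and 3.72 and 3.66 at 48 h, and in UT cells it was 2.54, 2.42 and 2.59 at 24 h and 2.99 and 2.57 at 48 h. Their median change was 0.85 beside -0.06 over all genes. Without vit C 48 h replicate 2, or any other of the 4 arrays, 7 were called, and 5 without the percentile shift.

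Promoter stretches of 2 of these genes are shown because they hold the element that ATF4 and C/EBP factors bind, TGATGNAA on either strand, in capitals. They are upstream stretches of RefSeq (GRCh38.p14), 5′ to 3′ in the direction of the gene, at chr7:97872409-97872488 (minus strand) for ASNS and chr15:40953251-40953470 (plus strand) for CHAC1.
ASNS: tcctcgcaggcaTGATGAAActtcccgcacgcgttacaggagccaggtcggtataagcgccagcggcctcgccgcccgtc
CHAC1: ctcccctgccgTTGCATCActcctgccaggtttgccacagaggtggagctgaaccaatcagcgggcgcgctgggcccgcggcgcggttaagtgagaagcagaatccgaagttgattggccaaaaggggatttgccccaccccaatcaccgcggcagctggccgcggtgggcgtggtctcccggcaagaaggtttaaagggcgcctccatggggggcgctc
Within 250 bases before the start, 3 of the 16 genes of the group that have a promoter in the table hold it (18.8%, ASNS, CHAC1 and HERPUD1), as do 3.19% of all 27305 promoters. A match is a description of letters only.

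Both enzymes that open serine synthesis were among the called genes. PSAT1, phosphoserine aminotransferase, read -0.57 and -0.05 at 24 h and 4.39 and 4.13 at 48 h and rose by 4.56 ± 0.39 (q = 1.7e-05, limma). PHGDH, phosphoglycerate dehydrogenase, rose by 3.93 ± 0.38 from 2.18 and 2.13 at 24 h and 5.93 and 6.23 at 48 h. ASNS, asparagine synthetase, read 3.62 and 3.78 at 24 h and 6.16 and 5.94 at 48 h and rose by 2.35 ± 0.36 (q = 0.0012, limma). CTH, which makes cysteine from cystathionine, rose by 3.32 ± 0.37 from -1.10 and -0.58 at 24 h and 2.76 and 2.18 at 48 h. These 4 enzymes were each higher on both 48 h arrays than on both 24 h arrays by more than the gap between replicates. TRIB3, a pseudokinase that restrains ATF4 itself, read 3.43 and 3.45 at 24 h and 6.71 and 6.65 at 48 h and rose by 3.24 ± 0.34 (q = 7.6e-05, limma). SESN2, a leucine sensor that restrains mTORC1, rose by 2.33 ± 0.45, CHAC1, which degrades glutathione, by 1.72 ± 0.31, and VLDLR, a lipoprotein receptor that ATF4 also switches on, by 1.91 ± 0.35. SESN2 lost the call without vit C 24 h replicate 2, and VLDLR without vit C 24 h replicate 1 or 48 h replicate 1. ASNS was not counted without vit C 24 h replicate 1 or 48 h replicate 2, where another of its probes pointed the other way. ATF4 itself changed by 0.79 ± 0.19 (q = 0.024, limma), under the 1-unit limit, and DDIT3, the stress factor CHOP, by 0.71 ± 0.24. HSPA5, the chaperone of the endoplasmic reticulum known as BiP, changed by -0.79 ± 0.26 (q = 0.10, limma).

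In UT cells over the same hours 2 of the 17 genes were called higher, PSAT1 and PHGDH, and 1 lower, and the median change was 0.35. The change was larger in vit C cells for 16 of the 17. PSAT1 read -0.31, -0.31 and 0.03 at 24 h and 2.20 and 1.10 at 48 h in UT cells, a change of 1.85. TRIB3 changed by 0.65 there, ASNS by 0.36, CTH by 0.94 and VLDLR by -0.01. VLDLR read 0.25, 0.12 and 0.04 at 24 h and 0.30 and -0.06 at 48 h in UT cells, so that its 24 h levels were lower in vit C than in UT cells, as were those of TRIB3 (4.50, 3.96 and 4.42 at 24 h and 5.37 and 4.52 at 48 h in UT cells). None of these differences between vit C and UT cells passed the test of the difference itself. The nearest were TRIB3 with 2.58 ± 0.46 (q = 0.068, limma), PSAT1 with 2.71 ± 0.53 (q = 0.089, limma) and CTH with 2.38 ± 0.51 (q = 0.14, limma). STC2, which is also an ATF4 target, differed by 3.52 ± 0.64 (q = 0.078, limma).

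**Figure D3:**
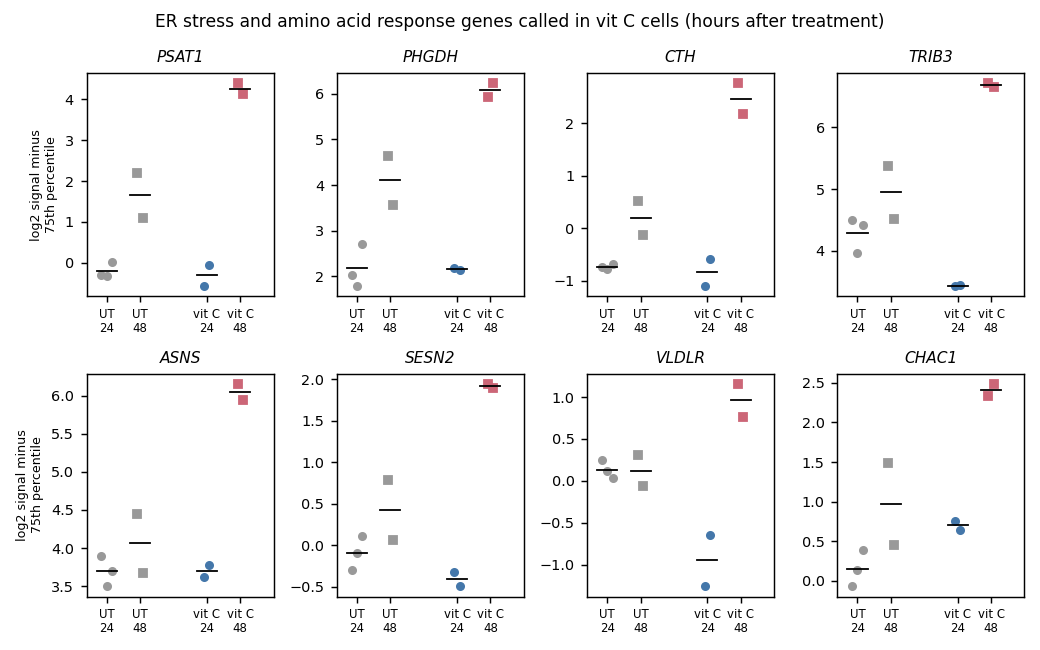
Levels (log2 signal minus the array's 75th percentile) of the 8 called genes of the amino acid response on the vit C and UT arrays of 24 and 48 h, 1 point an array. The 48 h vit C arrays are the highest for all 8 genes shown, and UT arrays of 48 h lie near those of 24 h for VLDLR and ASNS.

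Mitotic genes gave the most uniform rise. Of 30 genes of mitosis 29 rose (96.7%), with a median change of 2.13. The mean level over the 30 genes was 0.04 and 0.38 at 24 h and 2.44 and 2.26 at 48 h. In UT cells it was -0.01, -0.03 and -0.10 at 24 h and 1.62 and 1.77 at 48 h, 26 of the 30 rose and the median was 1.74. The same 26 genes were called in both. None of the 30 passed the test of the difference between vit C and UT cells. With 1 array left out 24 to 29 were called, 26 without vit C 48 h replicate 2, and without the percentile shift 18. The remaining gene, CCNB2 (cyclin B2), changed by 2.18 on its brightest probe and was not counted because another probe changed by -0.90.

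Promoter stretches of 3 of these genes are given because they hold the cell cycle homology region TTTGAA, in capitals. They are from RefSeq (GRCh38.p14) at chr16:23678849-23678888 (plus strand) for PLK1, chr1:37692476-37692515 (plus strand) for CDCA8 and chr2:26786026-26786055 (plus strand) for CENPA.
PLK1: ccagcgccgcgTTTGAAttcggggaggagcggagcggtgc
CDCA8: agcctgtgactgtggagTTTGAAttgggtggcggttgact
CENPA: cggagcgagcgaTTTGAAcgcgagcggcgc
On either strand within 250 bases before the start, 13 of 25 mitotic genes with a promoter in the table hold these letters (52%), and 13.6% of all promoters do.

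PLK1, the polo-like kinase of mitotic entry and exit, read 1.62 and 1.58 at 24 h and 3.88 and 4.27 at 48 h and rose by 2.48 ± 0.19 (q = 8.4e-06, limma). The largest rise of the group was that of KIF20A, a kinesin of cytokinesis, at -2.63 and -2.66 at 24 h and 0.53 and 0.42 at 48 h, a change of 3.12 ± 0.21. Cyclin B1 (CCNB1) and its kinase CDK1 rose by 1.97 ± 0.23 and 1.58 ± 0.25, and cyclin A2 (CCNA2) by 2.03 ± 0.27. The proliferation antigen MKI67 was low at 24 h and rose by 2.27 ± 0.29 from -3.10 and -3.46 at 24 h and -1.00 and -1.03 at 48 h. Among kinetochore genes CENPF rose by 2.72, NUF2 by 2.53, NDC80 by 2.39, CENPA by 2.06, CENPE by 2.00 and CENPK by 1.53. Checkpoint and exit genes rose as well, BUB1 by 2.14, BUB1B by 2.08, TTK by 2.08, CDC20 by 2.29, PTTG1 (securin) by 1.79 and UBE2C by 1.75. The aurora kinases AURKA and AURKB rose by 1.53 and 2.21, and CDCA8 and BIRC5 (survivin), partners of AURKB, by 1.94 and 2.19. Spindle genes TPX2, NUSAP1, ASPM, DLGAP5, KIF11 and KIF23 rose by 2.30, 2.13, 2.73, 2.48, 1.84 and 1.20, and topoisomerase TOP2A by 2.73. CENPA, CENPE, CENPK, TTK and KIF23 each lost the call with at least 2 of the 4 single arrays left out.

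Few genes of DNA replication passed the test in vit C cells. Of 27 such genes 2 were called higher (7.41%), or 0 without the percentile shift, and none lower, with 26 above 0 and a median of 0.52. Without that shift 19 were above 0 and 8 below, with a median of 0.18. TYMS, thymidylate synthase, rose by 1.22 ± 0.28 from 2.99 and 3.86 at 24 h and 4.72 and 4.58 at 48 h, and RFC3, a clamp loader subunit, by 1.81 ± 0.46 from -2.06 and -1.79 at 24 h and -0.76 and 0.52 at 48 h. Each lost the call with 3 of the 4 arrays left out in turn, and the 48 h arrays of RFC3 were over 1 unit apart. The spot of RFC3 on vit C 48 h replicate 2 was marked as an outlier by the scanner software, and without it the change of RFC3 was 1.17 (q = 0.22, limma) and was not called. In UT cells 19 of the 27 rose, with a median of 1.20. The mean level over the list was 1.63 and 1.81 at 24 h and 2.28 and 2.23 at 48 h in vit C cells and 1.09, 1.08 and 1.07 at 24 h and 2.21 and 2.29 at 48 h in UT cells, so that the arrays of 48 h were near each other and those of 24 h were lower in UT cells. PCNA, the sliding clamp, changed by 0.52 ± 0.34 in vit C and 1.39 in UT cells, and CDC6, which loads the replicative helicase, by 0.46 ± 0.19 and 1.51. No gene of the list passed the test of the difference.

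Of 9 measured CDK inhibitors and G1 cyclins 2 rose (22.2%). CDKN2D read 1.54 and 1.25 at 24 h and 3.60 and 3.34 at 48 h and rose by 2.07 ± 0.23, and CDKN1C rose by 1.71 ± 0.27 from -1.88 and -2.00 at 24 h and -0.13 and -0.33 at 48 h. In UT cells they changed by 1.68 and 0.57. CDKN1A changed by -0.92 ± 0.26 (q = 0.060, limma).

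Genes of the extracellular matrix rose at 48 h and none fell. Of 16 measured matrix genes 8 rose (50%), or 3 without the percentile shift, and the median change was 1.54, or 0.92 with normexp background correction. In UT cells 4 of the 16 rose, with a median of 0.54. The mean level over the list was -1.68 and -1.71 at 24 h and -0.11 and 0.13 at 48 h in vit C cells and -1.96, -2.10 and -2.00 at 24 h and -1.23 and -1.28 at 48 h in UT cells. The count was also 8 without vit C 48 h replicate 2. Fibronectin (FN1), which cells bind through integrins, read 1.59 and 2.13 at 24 h and 5.64 and 4.92 at 48 h and rose by 3.42 ± 0.38 (q = 0.00012, limma), with 3.39 in UT cells. Lumican (LUM), a leucine-rich proteoglycan that orders collagen fibrils, was below detection at 24 h and read -6.93 and -7.58 at 24 h and -3.25 and -3.58 at 48 h, at least 3.24-fold higher at 48 h. UT cells had no LUM signal well above background at either time. LUM was covered through the 48 h vit C arrays alone, and with normexp background correction its change was 0.86 and the call was lost. SPARC (osteonectin) rose by 2.12 ± 0.39, versican (VCAN) by 1.65 ± 0.29 and tenascin C (TNC) by 1.57 ± 0.40, the last losing the call with 3 of the 4 arrays left out in turn and SPARC without vit C 48 h replicate 1. The basement membrane collagens COL4A1 and COL4A2 rose by 1.27 ± 0.22 and 1.50 ± 0.20 from -1.47 and -1.36 at 24 h and -0.01 and -0.29 at 48 h and 1.61 and 1.53 at 24 h and 3.02 and 3.14 at 48 h, with UT changes of 0.45 and 0.63. COL1A1, a chain of fibrillar collagen detected on 1 of the 2 arrays of 24 h, changed by 1.95 ± 0.54 (q = 0.053, limma) without passing. MFAP5, a microfibril protein, changed by 2.36 ± 0.95 with 48 h arrays at -3.48 and -0.35 (q = 0.19, limma).

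Of 18 proteinases and genes of plasminogen activation 4 rose (22.2%) and 2 fell (11.1%). Without the percentile shift 0 rose and 2 fell. PLAU, the urokinase that activates plasminogen, was the gene of this list for which vit C and UT cells differed. It read 4.60 and 5.06 at 24 h and 6.61 and 6.41 at 48 h in vit C cells, a change of 1.68 ± 0.21 (q = 0.00028, limma). In UT cells it read 5.28, 5.06 and 5.02 at 24 h and 5.05 and 5.06 at 48 h, a change of -0.07, and the difference was 1.74 ± 0.28 (q = 0.045, limma), kept with 2 of the 9 arrays left out in turn. PLAT, the tissue-type activator, rose by 2.01 ± 0.46 from -3.50 and -3.75 at 24 h and -1.55 and -1.68 at 48 h. The collagenase MMP1 rose by 1.44 ± 0.24 and the stromelysin MMP10 by 1.99 ± 0.50. The macrophage elastase MMP12 was at 1.23 and 1.74 at 24 h and -1.15 and -1.26 at 48 h, a fall of -2.69 ± 0.38 (q = 0.00079, limma). MMP19 fell by 1.08 on a second probe, and its brightest changed by -0.87. PLAT, MMP10 and MMP19 lost the call with each of the 4 arrays left out in turn.

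S100 proteins, calcium-binding proteins of myeloid cells of which S100A8 and S100A9 form calprotectin, rose in 5 of 9 cases (55.6%), with a median change of 1.06 in vit C and 1.01 in UT cells. S100A8 read 0.36 and 0.84 at 24 h and 4.06 and 4.67 at 48 h and rose by 3.77 ± 0.31 (q = 1.6e-05, limma). Its partner S100A9 read -2.43 and -1.86 at 24 h and 0.93 and 0.98 at 48 h and rose by 3.10 ± 0.46. For both, the 48 h arrays lay above the 24 h arrays by several times the gap between replicates. S100A8 and S100A9 rose in UT cells too, by 3.40 and 2.64. S100P read -2.97 and -2.48 at 24 h and 1.24 and 1.49 at 48 h and rose by 4.09 ± 0.82, with 1.01 in UT cells (q = 0.64, limma), and the difference did not pass (q = 0.47, limma). S100A12 rose by 1.69 ± 0.32 and S100A10 by 1.06 ± 0.26. S100P and S100A12 lost the call without vit C 24 h replicate 1 or 48 h replicate 2 and S100A10 without any of the 4 arrays, and 2 of the list were called without vit C 48 h replicate 2 and 3 without the percentile shift.

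Metallothioneins bind zinc and copper and follow the supply of these metals. Of 11 genes of metal handling 8 rose (72.7%), with a median of 1.23 in vit C cells. In UT cells 9 rose, with 1.47. The mean level over the list was 3.07 and 3.30 at 24 h and 4.21 and 4.42 at 48 h in vit C cells. Without vit C 48 h replicate 2, 6 were called, and without the percentile shift 1. The family's members are near-identical in sequence and probes can bind several, so the single values are uncertain.

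The promoters of MT2A and MT1X are shown for their metal response elements, TGCNCNCGG on either strand, in capitals, at chr16:56608404-56608583 (plus strand) and chr16:56682310-56682469 (plus strand) (RefSeq, GRCh38.p14).
MT2A: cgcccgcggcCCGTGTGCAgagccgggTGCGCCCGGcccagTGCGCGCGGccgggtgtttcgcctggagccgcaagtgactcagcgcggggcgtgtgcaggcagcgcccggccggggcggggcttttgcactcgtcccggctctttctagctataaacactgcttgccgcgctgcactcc
MT1X: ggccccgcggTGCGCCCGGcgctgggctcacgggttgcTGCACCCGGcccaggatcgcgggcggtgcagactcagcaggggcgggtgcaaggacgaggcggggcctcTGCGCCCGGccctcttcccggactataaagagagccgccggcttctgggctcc
All 5 genes of the list with a promoter in the table hold at least 1 within 250 bases, beside 5.18% of all promoters.

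MT1F had the largest rise, at 0.96 and 0.61 at 24 h and 2.80 and 3.13 at 48 h, a change of 2.18 ± 0.24 (q = 0.00011, limma). MT2A read 5.49 and 6.04 at 24 h and 6.89 and 6.88 at 48 h and rose by 1.11 ± 0.25. MT1X, MT1E, MT1G, MT1H, MT1L and MT1M rose by 1.25, 1.23, 1.19, 1.25, 1.36 and 1.34. MT2A lost the call with 3 of the 4 arrays left out in turn and MT1M with each of the 4.

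Granule proteins, which promonocytes make before they mature, and other genes of myeloid precursors fell. Of 7 measured genes 5 fell (71.4%), 4 of granule proteins and MYB. The median was -2.61 in vit C and -1.67 in UT cells, where 3 fell. With normexp background correction the vit C median was -1.17. Neutrophil elastase (ELANE) read -0.21 and -0.47 at 24 h and -3.77 and -3.66 at 48 h, a change of -3.37 ± 0.45 (q = 0.00048, limma). AZU1 (azurocidin) changed by -2.61 ± 0.33 from -0.60 and -0.66 at 24 h and -3.35 and -3.14 at 48 h. PRTN3 (proteinase 3) changed by -2.61 ± 0.34 from -0.89 and -0.86 at 24 h and -2.93 and -4.04 at 48 h. With cathepsin G, described above, these 4 proteins of the serine proteinase family are stored in azurophil granules, and the 48 h arrays of each lay below both 24 h arrays. MYB, a transcription factor of dividing precursors, fell by 1.11 on the log2 scale (q = 0.042, limma) and lost the call with any of the 4 arrays left out. In UT cells the falls of ELANE, AZU1 and PRTN3 were -2.52, -1.67 and -2.02.

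Interferon-stimulated genes fell in vit C and in UT cells. Of 24 genes 12 fell (50%) and none rose, with a median of -1.03 in vit C cells. In UT cells 12 fell, with -1.04, and 8 were called in both. The mean level over the list was 1.59 and 1.63 at 24 h and 0.62 and 0.55 at 48 h in vit C cells and 1.77, 1.80 and 1.78 at 24 h and 0.82 and 0.88 at 48 h in UT cells. With 1 of the 4 arrays left out 8 to 10 were called, 10 without vit C 48 h replicate 2, and without the percentile shift 8.

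Promoters of ISG15 and IFIT1 are shown for the core of the interferon-stimulated response element, GAAA followed after any 2 bases by GAAA on either strand, in capitals (overlapping matches run together), at chr1:1013367-1013496 (plus strand) and chr10:89392493-89392622 (plus strand) (RefSeq, GRCh38.p14).
ISG15: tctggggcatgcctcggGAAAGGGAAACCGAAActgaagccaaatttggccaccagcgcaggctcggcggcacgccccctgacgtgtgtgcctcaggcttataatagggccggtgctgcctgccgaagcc
IFIT1: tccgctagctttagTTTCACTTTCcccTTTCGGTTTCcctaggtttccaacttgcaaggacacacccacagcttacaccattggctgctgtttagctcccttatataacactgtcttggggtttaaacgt
Within 250 bases before the start, 10 of the 17 genes of the list that have a RefSeq promoter hold it (58.8%), and 3.07% of all promoters do.

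ISG15, a ubiquitin-like modifier, read 5.42 and 5.57 at 24 h and 3.83 and 3.80 at 48 h, a change of -1.68 ± 0.18 (q = 9.2e-05, limma). IFIT1, which binds viral RNA ends, read 2.53 and 3.01 at 24 h and 0.93 and 0.70 at 48 h, a change of -1.95 ± 0.27. MX1 and MX2, antiviral GTPases, changed by -1.54 ± 0.18 and -1.06 ± 0.17. RSAD2 (viperin) changed by -1.94, OASL by -1.92, IFI44L by -1.87, IFI44 by -1.64, IFIT2 by -1.48, IFITM1 by -1.21 and USP18, which removes ISG15, by -1.13. OAS2, which makes the activator of RNase L, fell by 1.03 on a second probe, its brightest changing by -1.12 (q = 0.056, limma). OAS2, IFI44, IFIT2 and IFITM1 lost the call with 3 of the 4 arrays left out in turn and USP18 with 1. IFIT3, which passed in UT cells with -1.49, changed by -0.55 ± 0.33 in vit C cells. IFI27 changed by -0.99 ± 0.20, just under the limit.

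Chemokines that attract monocytes and lymphocytes fell while 1 neutrophil chemokine rose. Of 15 chemokines of the first kind 8 fell (53.3%) and 1 rose (6.67%), with a median of -1.28, or -0.59 with normexp background correction, beside -0.82 in UT cells, where 5 fell. CXCL11, a CXCR3 ligand, was well above background on neither 48 h array and read -3.78 and -3.37 at 24 h and -6.90 and -6.55 at 48 h, at least 2.06-fold lower at 48 h. It was covered through the 24 h arrays alone, and its call was lost with normexp background correction (-0.43), with a floor of 20 units (-0.86) and without vit C 24 h replicate 2 or 48 h replicate 1. Another CXCR3 ligand, CXCL10, read -1.99 and -2.08 at 24 h and -4.33 and -4.78 at 48 h, a change of -2.52 ± 0.58 (q = 0.019, limma), with 1 of the 2 arrays of 48 h well above background, and with normexp background correction the change was -0.70 and the call was lost. CCL2, the main monocyte attractant, read 7.42 and 7.71 at 24 h and 6.13 and 6.11 at 48 h and changed by -1.44 ± 0.22. The inflammatory chemokines CCL3, CCL4 and CCL5 changed by -1.28 ± 0.20, -1.90 ± 0.19 and -1.60 ± 0.31, CCL8 by -2.38 ± 0.35 and CCL23 by -1.31 ± 0.29. CCL17, a CCR4 ligand, rose by 1.46 ± 0.27, a call lost without vit C 24 h replicate 2, without the percentile shift (1.11) and with normexp (0.74). With 1 of the 4 arrays left out, 5 genes of the list were called lower in each case, and CXCL10 and CCL23 lost the call in all 4 and CCL5 without vit C 24 h replicate 1 or 48 h replicate 2. CXCL5, a CXCR2 ligand of neutrophils, read 1.45 and 1.60 at 24 h and 4.13 and 3.99 at 48 h and rose by 2.54 ± 0.35 (q = 0.00057, limma), with 2.43 in UT cells. It was the only one of 7 neutrophil-attracting chemokines to pass (14.3%). CXCL1 changed by 0.99 ± 0.24, at the edge of the limit.

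Among 18 cytokines 3 rose (16.7%) and 2 fell (11.1%). IL11, a cytokine of the IL6 family, read -1.12 and -1.26 at 24 h and 1.74 and 1.66 at 48 h and rose by 2.89 ± 0.38. IL6 itself rose by 2.74 ± 0.38 from -3.63 and -3.36 at 24 h and -0.66 and -0.85 at 48 h, and by 3.11 in UT cells. IL23A, a subunit of IL23, rose by 2.39 ± 0.21 from 0.97 and 0.99 at 24 h and 3.20 and 3.54 at 48 h. EBI3, a subunit of IL27 and IL35, fell by 1.21 on the log2 scale, and LIF by 1.03, the latter losing the call with any array left out and EBI3 without vit C 24 h replicate 1 or 48 h replicate 2. All 17 NF-kappa-B feedback genes were lower at 48 h, with a median of -0.55, and 2 passed the test (11.8%). These were BIRC3, an inhibitor of apoptosis, with -1.60 ± 0.32, and the adaptor TRAF1 with -1.45 ± 0.19. The UT changes were -0.72 and -1.54, and BIRC3 lost the call with 3 of the 4 arrays left out in turn.

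**Figure D4:**
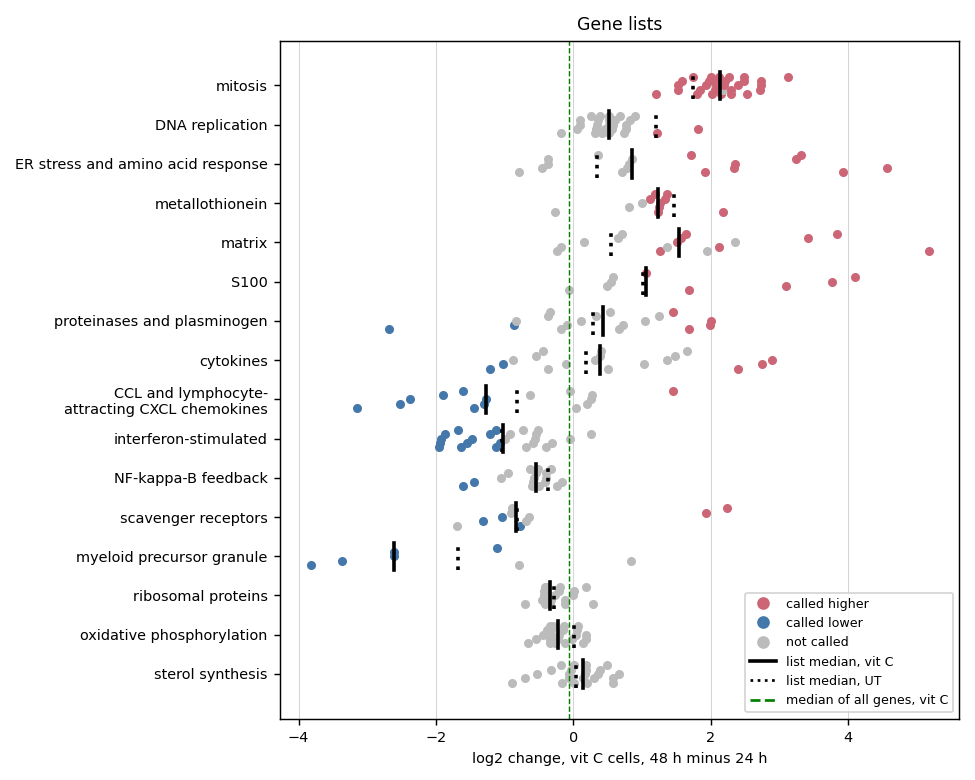
Change from 24 to 48 h (log2) of each measured gene of 16 gene lists in vit C-treated cells, with the list's median in vit C and in UT cells. The medians lie furthest above 0 for mitosis (2.13) and furthest below for granule proteins and other genes of myeloid precursors (-2.61).

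Ligands of the TGF-beta family changed in both directions. INHBA, the activin A chain, read 2.10 and 1.82 at 24 h and 5.12 and 5.12 at 48 h and rose by 3.16 ± 0.19 (q = 1.4e-06, limma), beside 3.23 in UT cells. INHBB, the activin B chain, read -5.99 and -4.52 at 24 h and -2.57 and -2.86 at 48 h and was called, but only 1 of its 24 h arrays was well above background, and with normexp background correction the change was 0.96 and the call was lost. TGFB3 read 1.11 and 1.43 at 24 h and -0.54 and -0.85 at 48 h and changed by -1.97 ± 0.20. No other of the 14 ligands listed passed, and their median was 0.20, or -0.14 without the percentile shift. Of 20 contractile and SRF-type genes 3 rose (15%) and 1 fell (5%), with a median of 0.30, or -0.048 without the shift. The matricellular genes CCN1 and CCN2 rose by 2.94 ± 0.33 and 2.47 ± 0.42, and smooth muscle actin ACTA2 by 2.02 ± 0.42 from -4.22 and -4.86 at 24 h and -2.26 and -2.79 at 48 h. Its relative ACTG2 moved the other way, from -0.05 and -0.11 at 24 h and -1.83 and -1.97 at 48 h, a change of -1.82 ± 0.21 (q = 0.00013, limma). ACTA2 lost the call with 2 of the 4 arrays left out in turn and with normexp background correction (0.89). Without the percentile shift CCN2 and ACTA2 lost the call, leaving 1 contractile and SRF-type gene called higher and 1 lower.

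Scavenger receptors, which take up modified lipoproteins and debris, split. Of 10 genes 2 rose (20%) and 3 fell (30%). MARCO read 1.09 and 0.42 at 24 h and 2.91 and 3.09 at 48 h and rose by 2.24 ± 0.27, and LRP1 rose by 1.93 ± 0.44 from -2.41 and -3.33 at 24 h and -1.08 and -0.79 at 48 h. CD36 was at 4.65 and 5.34 at 24 h and 3.69 and 3.66 at 48 h, a change of -1.32 ± 0.23, and CD163, the haptoglobin-hemoglobin receptor, changed by -1.03 ± 0.28 (q = 0.047, limma). MSR1 changed by -1.60 on a dimmer probe and by -0.77 on its brightest. MARCO rose in UT cells by 2.34 and LRP1 changed there by 0.32. LRP1 lost the call with 3 of the 4 arrays left out in turn, CD163 with each and CD36 without vit C 24 h replicate 2. In lipid handling, the sterol sensor NR1H3 (LXR alpha) was at 7.02 and 6.78 at 24 h and 5.36 and 5.39 at 48 h, a change of -1.52 ± 0.21, beside the rise of its target ABCG1 and the fall of FABP4 given above. These were the 3 called genes of 15 (6.67% higher and 13.3% lower). The median was 0.22, or -0.12 without the percentile shift. Of 23 lysosomal genes 3 fell (13%), the acid lipase LIPA by -1.84 ± 0.23, cathepsin L (CTSL) by -1.18 ± 0.23 and the cholesterol carrier NPC2 by -1.07 ± 0.18. NPC1, the membrane partner of NPC2, rose by 1.04 ± 0.22, the 1 rise of the list (4.35%). NPC1 lost the call with 3 of the 4 arrays left out in turn, CTSL with 2 and NPC2 with 1.

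Of 17 antioxidant genes of the NRF2 type 3 fell (17.6%) and none rose. HMOX1 has been described. GCLC, which limits glutathione synthesis, was at 4.37 and 4.91 at 24 h and 3.28 and 3.21 at 48 h, a change of -1.40 ± 0.27, with -0.20 in UT cells, and lost the call without vit C 24 h replicate 2. The ferritin light chain FTL fell by 1.30 on 1 probe, whereas its brightest changed by -0.50 (q = 0.16, limma), and FTL lost the call with 3 of the 4 arrays left out in turn. Among genes of glycolysis and the hypoxia-inducible factors 3 of 25 rose (12%), NDRG1 by 1.36 ± 0.25, the mTORC1 inhibitor DDIT4 by 2.30 ± 0.30 from 2.69 and 2.22 at 24 h and 4.86 and 4.67 at 48 h and VEGFA by 1.64 on a second probe. No gene of glycolysis itself passed, and the list's median was 0.13, or -0.21 without the percentile shift. BNIP3, a mitophagy receptor, read 0.95 and 1.60 at 24 h and -6.80 and 1.13 at 48 h, so that its 48 h arrays disagreed and 1 of them was not well above background, and its change of -4.11 ± 1.53 did not pass (q = 0.15, limma).

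Of the dioxygenases that use vit C, 21 were measured. PLOD2, a lysyl hydroxylase of collagen, rose by 1.31 ± 0.30, and P3H3, a prolyl 3-hydroxylase, by 2.19 ± 0.46 from -4.28 and -4.48 at 24 h and -2.26 and -2.11 at 48 h, as they did in UT cells (2.10 and 2.25). P4HA3, a collagen prolyl 4-hydroxylase chain, fell by 1.02 on the log2 scale from low levels (-2.66 and -2.72 at 24 h and -3.80 and -3.63 at 48 h), with 0.03 in UT cells. All 3 calls were lost with 3 or 4 of the single arrays left out, and 0 of the list were called without the percentile shift. With normexp background correction P4HA3 changed by -0.24. None of the 5 measured vit C transporters was called, with changes of -0.43 to 0.92. The hexose transporter SLC2A1, which takes up oxidised vit C, changed by 0.43 ± 0.31, and the sodium-ascorbate cotransporter SLC23A2 by -0.43 ± 0.30.

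Immediate early genes, the first to answer growth signals, moved both ways, 2 of 25 rising (8%) and 3 falling (12%). EGR1 changed by -1.27 ± 0.28 and DUSP6, a phosphatase of ERK, by -1.34 ± 0.27 from 6.31 and 7.08 at 24 h and 5.38 and 5.33 at 48 h. KLF6 changed by -1.14 ± 0.19 on its brightest probe and by -2.88 ± 0.27 on a dimmer one, both downwards. DUSP4, another ERK phosphatase, rose by 1.77 ± 0.19 and the orphan receptor NR4A1 by 1.40 ± 0.35. MYC was not counted since its probes opposed each other. EGR1 and NR4A1 lost the call with 3 of the 4 arrays left out in turn and DUSP6 with 2. In the list of osteoclast-type genes CTSK, the collagenase cathepsin K, and OSCAR, an immunoreceptor of osteoclasts, rose by 1.19 ± 0.23 and 1.35 ± 0.33, 2 of 10 osteoclast-type genes (20%) whose median was 0.24, or -0.10 without the percentile shift. Without that shift 0 of the 10 were called higher and 1 lower. CD9, a tetraspanin, fell by 1.18 on the log2 scale, 1 of 17 integrin and adhesion genes (5.88%). OSCAR lost the call with any array left out, and CTSK and CD9 with 2.

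In 6 further lists no gene was called. Over 23 genes of oxidative phosphorylation the changes ran from -0.66 to 0.19, the complex I subunits NDUFB8 and NDUFS3 standing at -0.66 ± 0.20 and -0.54 ± 0.27. Over 21 ribosomal protein genes they ran from -0.71 to 0.29, with RPS24 at -0.45 ± 0.18. Among 10 heat shock genes, the inducible chaperone HSPA1A changed by 0.75 ± 0.43 and HSP90AA1 by -0.48 ± 0.23. Among 23 sterol synthesis genes, with changes of -0.90 to 0.66, INSIG1, which holds back the sterol sensor SCAP, changed by -0.90 ± 0.21 and the cholesterol carrier STARD4 by -0.70 ± 0.33. Among 8 genes of MHC class II, HLA-DQB1 changed by 0.61 ± 0.26 and HLA-DRB1 by -0.27 ± 0.41, the latter turning to 0.43 without vit C 48 h replicate 1. Of 11 housekeeping genes, with changes of -0.27 to 0.70, B2M, the light chain of MHC class I, changed by 0.70 ± 0.21. The sterol and housekeeping medians of 0.15 and 0.05 became -0.20 and -0.29 without the percentile shift.

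UT cells changed over the same hours as well. There 1235 of 19805 genes were called (6.24%), 906 higher (4.57%) and 329 lower (1.66%). In the same direction 606 genes were called in both, 40.2% of the vit C calls and 49.1% of the UT calls, and 2 were called in opposite directions. The vit C and UT changes share no array. The called rises had a median of 1.58 in vit C and 1.14 in UT cells, and the called falls of -1.24 and -0.68. Since genes were chosen on the vit C change, the larger vit C medians are a description only.

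The change itself differed between vit C and UT cells for 24 of 21099 genes (0.114%), 17 of them more upward in vit C cells (0.0806%) and 7 more downward (0.0332%). Without the percentile shift 1 gene was called. The limma fit on these 9 arrays alone called 0 (1289 at unadjusted p), as did the methods' t-test (974 at unadjusted p). For 9 of the 17 and 3 of the 7 each called probe was well above background on no vit C array of the other time, so they were covered through the time at which they were bright. TBX15, a T-box transcription factor, had the smallest q. It read -2.18 and -2.26 at 24 h and 0.93 and 1.44 at 48 h in vit C cells, a rise of 3.41 ± 0.21, and -2.55, -2.56 and -2.29 at 24 h and -2.08 and -2.16 at 48 h in UT cells. The difference was 3.07 ± 0.29 (q = 0.0019, limma). AJUBA, a LIM-domain scaffold of cell contacts and Hippo signalling, read -2.43 and -1.87 at 24 h and 0.89 and 0.58 at 48 h in vit C cells and changed by 0.42 in UT cells, a difference of 2.46 ± 0.33 (q = 0.021, limma). The mitochondrial aldehyde dehydrogenase ALDH2 read -0.23 and 0.03 at 24 h and 2.02 and 2.10 at 48 h in vit C and 0.35, 0.29 and 0.77 at 24 h and 0.44 and 0.06 at 48 h in UT cells, a difference of 2.39 ± 0.32 (q = 0.021, limma). These 3 genes were picked for a large difference, so a wide gap in vit C cells beside close UT arrays restates the choice. At 96 h, a time not compared here, the UT means were 1.10 for TBX15, 0.69 for AJUBA and 3.78 for ALDH2, beside 1.19, 0.73 and 2.06 in vit C cells at 48 h. On its brightest probe DRD5 differed by 2.33 ± 0.38 (q = 0.045, limma), reading -2.63, -2.48 and -2.32 at 24 h and -1.99 and -2.68 at 48 h in UT cells. GDNF, a neurotrophic factor, differed by 2.27 ± 0.31 on 1 probe (q = 0.023, limma), which read -2.68 and -2.52 at 24 h and 0.24 and 0.30 at 48 h in vit C cells, but its brightest probe changed by 0.35 ± 1.07. LUM and PLAU, described above, were also among the 17, as were ALPK2, GPX8, AK022110 and AK001966 from the genes detected at 48 h only. For ALPK2, GPX8, AK022110, AK001966 and DRD5 (brightest probe) the UT means at 96 h were -0.44, -0.87, 0.81, -1.71 and 0.12. In vit C cells at 48 h they were 0.30, -1.28, 0.69, -1.77 and -0.07. LUM, PLAU and GDNF had UT means at 96 h of -7.04, 5.38 and -1.86, beside -3.42, 6.51 and 0.27 in vit C cells at 48 h.

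In the other direction, HECTD2, a ubiquitin ligase, read 2.04 and 2.67 at 24 h and 1.14 and 1.26 at 48 h in vit C and 1.58, 1.46 and 1.25 at 24 h and 2.68 and 2.63 at 48 h in UT cells, so that it changed by -1.15 ± 0.27 in the first, a call lost with 3 of the 4 vit C arrays left out in turn, and by 1.23 in the second. The difference was -2.38 ± 0.36 (q = 0.034, limma). Chitotriosidase (CHIT1), a chitinase secreted by mature macrophages, rose in both, by 1.84 ± 0.29 in vit C and 4.15 in UT cells, from 0.43 and 0.13 at 24 h and 1.96 and 2.27 at 48 h and -0.77, -0.75 and -0.63 at 24 h and 3.45 and 3.40 at 48 h. Its difference was -2.31 ± 0.39 (q = 0.049, limma). RASL11B, a RAS-like GTPase, changed by -0.92 ± 0.21 in vit C and 1.03 in UT cells on 1 probe, a difference of -1.94 ± 0.29 (q = 0.031, limma), and by -0.79 and 0.88 on its brightest. FFAR3, detected in vit C cells at 24 h only and in UT cells at both times, was also among the 7, but its 48 h signal in vit C cells was not well above background. 

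The number of such genes depended on single arrays. It was 5 without UT 24 h replicate 1 and 3 without UT 24 h replicate 3, 14 without vit C 24 h replicate 2, 64 without vit C 24 h replicate 1 and 75 without vit C 48 h replicate 2. The balance of directions turned as well, with 16 more upward and 59 more downward in vit C cells without vit C 48 h replicate 2 and 27 and 64 with slide as a fixed block. With quantile normalization it was 27 and 26. Of the 24 genes, 22 stayed called without vit C 48 h replicate 2, that is, with 1 slide for the vit C arrays and 1 for the UT arrays. Of the named genes measured at both times, TBX15 stayed called with each of the 9 arrays left out in turn. ALDH2 stayed with 8 of the 9, AJUBA with 7, GDNF with 6, RASL11B with 5, HECTD2 with 3, PLAU with 2 and CHIT1 with 1. DRD5 stayed with all 9 by 1 or the other of its called probes, of which 1 was not detected at 24 h. All these UT arrays lay on a slide without vit C arrays. A constant offset of a slide drops out of a change taken within 1 slide. All UT changes are of this kind, and the vit C changes are without vit C 48 h replicate 2. With slide as a fixed block 22 of the 24 stayed called as well. A slide effect that differs between the times cannot be told apart from vit C.

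**Figure D5:**
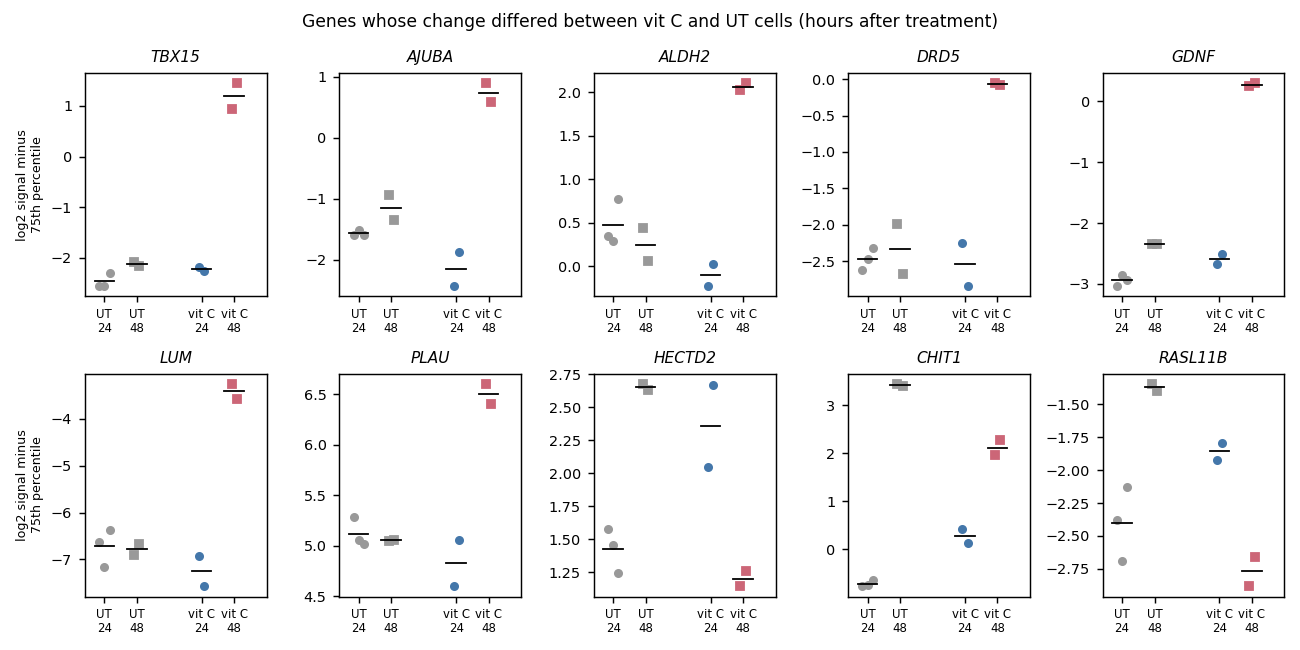
Levels (log2 signal minus the array's 75th percentile) of 10 genes whose change differed between vit C and UT cells, on each array of 24 and 48 h. The genes were picked for such a difference. TBX15, AJUBA and ALDH2 rise in vit C cells while their UT arrays of the 2 times lie close together, and CHIT1 rises more in UT cells.

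Some genes had been chosen for what earlier results of these arrays showed at other times. GPR18, a lipid-activated receptor, rose by 1.95 ± 0.27 (0.91 and not called with normexp background correction) from -4.84 and -4.21 at 24 h and -2.33 and -2.82 at 48 h, with 2.15 in UT cells. SGK1, the serum- and glucocorticoid-inducible kinase, was called with -2.26 ± 0.62 (q = 0.048, limma), but its 48 h arrays read 2.54 and 5.46. Without vit C 48 h replicate 1 its change was -0.80 and the call was lost, as it was without either 24 h array. TNFRSF11B, the decoy receptor osteoprotegerin, was well above background on 1 of the 2 vit C arrays of 24 h and changed by 1.25 ± 0.40 (q = 0.095, limma) in vit C cells and rose by 3.33 in UT cells, and the difference did not pass (q = 0.25, limma). BDNF, a neurotrophin, changed by 0.90 ± 0.58 (q = 0.40, limma). CCL5, ACTG2, LUM, S100A8, S100A9 and MFAP5 are given with their groups.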

How the data were processed

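Total RNA of THP-1 cells was labelled with Cy3 and hybridised to Agilent whole-genome arrays after selection of samples by RNA integrity. Per the file headers, the authors extracted the deposited intensity values with Feature Extraction 10.5.1.1, which subtracts the background and flags spots well above it. In the deposited series table the authors' log2 values, shifted to the 75th percentile in GeneSpring per the methods, are on the same scale and served as an alternative. No non-control spot on the 19 arrays was saturated. Control spots were left out and spots of a probe were averaged. The 30 to 79 spots an array that the software marked as outliers were kept, and leaving them out was an alternative chosen after seeing the data. The number of arrays limits the precision.

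From the processed signal, log2 values were taken and each array's 75th percentile over non-control probes was subtracted. Group means of all 8 groups (19 arrays) were fitted with limma 3.58.1 in R 4.3.3, which gave 11 residual degrees of freedom, and the contrasts vit C 48 h minus 24 h, UT 48 h minus 24 h and their difference were tested on both sides. Benjamini-Hochberg adjustment ran over 50238 probes. A call needed a log2 change of 1 or more and q not above 0.05, as in the methods. The methods drop a gene where any of its probes oppose each other. Here this was asked only of probes detected on both arrays of at least 1 time. The steps were tested on simulated data.

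Of the probes, 28595 were named by accession, 2998 by a current and 1176 by an older symbol in RefSeq, and 17469 kept the name of the array design. Named genes were the 12 largest rises and falls with symbols and detection on all 4 arrays, the 3 largest of either sign without a symbol, 4 of either sign detected at 1 time only, up to 5 of either sign whose change differed from UT cells, every called gene of the lists, up to 2 genes of a list without calls, and 10 genes that earlier results had singled out. The 12 and the 3 largest were taken only from genes whose arrays did not overlap between the times. ATF4, DDIT3, HSPA5, PCNA, CDC6, CDKN1A, COL1A1, IFIT3, IFI27, CXCL1, BNIP3 and CCNB2 were added after their values were seen. A few genes that the rule names are not reported here. The members and lists were chosen with earlier results of these data known.

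The same replicate numbers occur at both times, but titles and descriptions of the 48 h samples give different numbers, and the replicate differences of the 2 times correlated with r = -0.10, so the numbers were not taken to pair the arrays.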

Additional observations from a re-analysis of the deposited data

Results flagged for a closer look

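The test of the difference itself, the vit C change minus the UT change from 24 to 48 h in limma, was passed by 24 genes. Of these 1 stayed without the percentile shift, and the limma fit on the compared groups alone called 0 (1289 at unadjusted p). All UT arrays of these times lay on 1 slide and the vit C arrays on 2 others. With slide as a fixed block 22 of the 24 stayed called. A constant slide offset drops out of a change within 1 slide, but a slide effect that differs between the times cannot be told apart from vit C.

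Among named genes more upward in vit C cells were ALPK2 with a difference of 4.86 on the log2 scale, AK001966 with 4.42, AK022110 with 4.20, LUM with 3.90, DRD5 with 3.79 and GPX8 with 3.73. These 6 probes were well above background on no 24 h array of either treatment, so these values include signals near background and are no measured folds. TBX15 differed by 3.07, AJUBA by 2.46, ALDH2 by 2.39, GDNF by 2.27 on 1 of its probes and PLAU by 1.74. In the other direction FFAR3 differed by -3.12, likewise no measured fold since its signal was not well above background at 48 h in vit C cells, HECTD2 by -2.38, CHIT1 by -2.31 and RASL11B by -1.94.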

How the results depend on the processing

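The 1509 calls for vit C 48 h against 24 h, the 1235 for UT cells and the 24 for the difference were recomputed with 1 choice changed at a time. The methods' t-test gave 0, 0 and 0 (1547, 1589 and 974 before adjustment). The limma fit on the compared groups alone gave 362, 680 and 0 (the last 1289 before adjustment), normexp background correction 928, 629 and 38, signal without the percentile shift 794, 508 and 1, and unadjusted p 2319, 1822 and 1171. For the difference, an intensity trend gave 42, quantile normalization 53, a floor of 20 units 182 (98 more upward and 84 more downward), slide as a fixed block 91 and array weights 51. Slide as a random block gave 1486, 1246 and 24, and the deposited log2 values 1510, 1234 and 24. With the replicate number as a block the counts were 1344, 1085 and 5, and 7 of the 165 named genes called on their brightest probe lost the call. Without the spots marked as outliers, chosen after seeing the data, the counts were 1513, 1238 and 24, and RFC3 lost its call with 1.17. With the pairing crossed, chosen after seeing the data, they were 1336, 1079 and 3. Leaving out each array in turn gave 952 to 1242, 706 to 1152 and 3 to 75.

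Of the 165 genes, all 165 lost the call with the methods' t-test, 81 with limma on the compared groups alone, 62 without the percentile shift, 31 with slide as a fixed block, 17 with normexp (beside those named above with it, CD9, COL4A1, CTSK, IFITM1, LIF, NPC1, NR4A1 and S100A10) and 32 to 40 with 1 vit C array left out. With normexp CD86, MMP19, MSR1, OAS2, TGFB3 and GP1BA also lost the call through a probe that is not their brightest. Signs turned for GDNF, from 0.35 to between -0.28 and 0.98 with 1 array left out, for HLA-DRB1, from -0.27 to between -0.97 and 0.43, and for GP1BA, from -0.08 to 0.16 with normexp, 0.21 with slide as a fixed block and between -0.38 and 0.23 with 1 array left out. Without the percentile shift the medians of the contractile (-0.048), sterol (-0.20), lipid efflux (-0.12), glycolysis (-0.21), TGF-beta and related ligand (-0.14), osteoclast-type (-0.10), dioxygenase (-0.25) and housekeeping (-0.29) lists turned negative. With normexp the medians of the vit C transporters (from -0.13 to 0.21) and MHC class II (from -0.096 to 0.11) turned positive, the former also with a floor of 20 units, with slide as a fixed block and without vit C 48 h replicate 2, the latter also without vit C 24 h replicate 1. The housekeeping median was -0.025 with normexp, and that of the monocyte markers lay between -0.26 and 0.12 with 1 array left out. The cause was not tested in any of these cases. Probes not well above background at a time give only a bound.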
